A study of Mus musculus with 6 samples.

Results

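The comparison covered 32 of the 64 wells of a bulk SCRB-seq experiment on nuclei from formalin-fixed, paraffin-embedded (FFPE) mouse brain. In 16 wells the wax had been removed with heated xylene, and in the other 16 with xylene at room temperature. Each method had 8 wells of 10 sorted nuclei and 8 wells of 100. Wells were taken by the treatment and nuclei number in the authors' annotation, and not by any measured value. SCRB-seq primes cDNA from the poly(A) tail, writes a short barcode into each well's cDNA and then pools the wells into one library. Every well held nuclei of C57BL/6J mice aged 8 to 12 weeks, taken from 50 µm scrolls that were rehydrated through ethanol and lysed after the wax was gone, so fixation, embedding and rehydration were common to both methods. The remaining 32 wells, 16 of heated mineral oil and 16 of frozen nuclei, serve here only as background. The sex of the mice, the animal behind each well, and the temperature and length of heating were not given in the sources used here. All wells belong to 1 deposited sample, so every p-value below measures the spread between these wells, which may be technical.

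Xylene is the usual solvent for paraffin, and warming softens the wax and speeds its removal. Formalin joins RNA to protein and adds groups to its bases, and heat can undo part of these bonds while it also breaks RNA. Nuclei hold unspliced transcripts and long noncoding RNAs that stay in the nucleus, such as Malat1 and Neat1, while mRNAs of the cytoplasm and mitochondrial transcripts enter a nuclear preparation with the cytoplasm that stays attached to it. The comparison asks what heat alone changed in the RNA recovered with the same solvent.

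The well barcodes and library indices are shown because the structure of the data rests on them. Each method and nuclei number formed 1 pool of 8 wells with 1 library index. A pool and its condition therefore cannot be told apart at a given nuclei number. The indices of the 4 pools were:
heated xylene, 10 nuclei: agtagatt
heated xylene, 100 nuclei: gtgatagc
room-temperature xylene, 10 nuclei: tacttgaa
room-temperature xylene, 100 nuclei: acaaagtg
The same 8 well barcodes recurred in every pool. They are listed from the lowest to the highest median on principal component 3 of the 32 wells, with the last bases in capitals:
barcode 1: gcgtGG
barcode 2: cggaGG
barcode 3: cgtcGC
barcode 4: atacTT
barcode 5: cttcTG
barcode 6: agaaTT
barcode 7: cgacTT
barcode 8: ttccTC
Component 3 held 6.37% of the variance of log2 expression, and 84.9% of it lay between barcodes. Wells of both barcodes that end in GG had scores from -26.7 to -7.67, and wells of the other 6 barcodes from -5.29 to 14.5. Nuclei number took up 71.8% of component 1 (17.1% of the variance), and the xylene method took up 51.9% of component 2 (13.02%).

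The room-temperature pools of 10 and of 100 nuclei were not independent of each other. After each pool's mean was subtracted from log2(CPM + 50), the 8 pairs of wells with the same barcode in these pools had correlations of 0.281 to 0.538 across the 1755 genes tested (median 0.422), and all 8 wells were most like the well with their own barcode. In the other 27 pairs of pools the medians ran from 0.006 to 0.181, and 1 to 8 wells were most like the well with their own barcode, with 8 between heated xylene and mineral oil at 10 nuclei. Between the room-temperature pools 36 genes had counts in exactly 1 well of each, and in 19 of these genes (52.8%) the well carried the same barcode in both. Equal use of the barcodes would give 12.5%, and the other 27 pairs of pools gave 78 of 672 (11.6%). Among pairs with at least 30 such genes, the next highest shares were 14 of 50 (28.0%) between the frozen pools and 8 of 35 (22.9%) between the heated xylene pools. What linked these wells was not tested. Values over the 32 wells, and the model of the 4 pools that gives the values at each nuclei number, hold both linked pools. Fits of 1 nuclei number alone hold only 1 of them, and their counts are set beside the others.

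**Figure D1:**
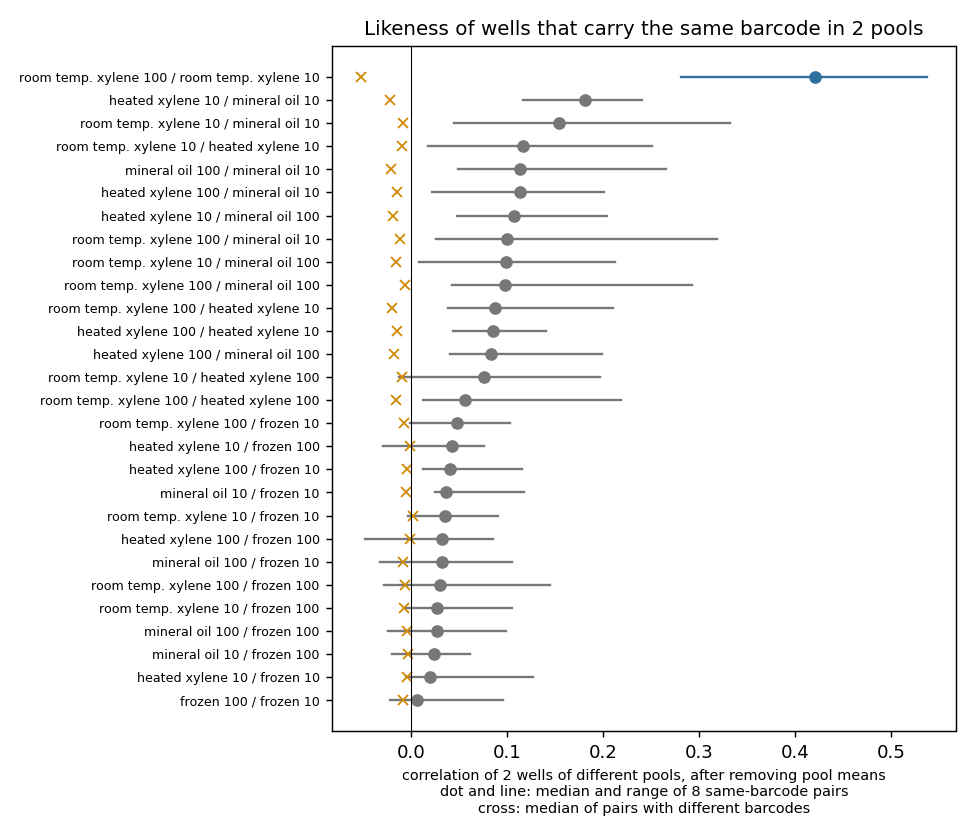
Correlation across 1755 genes between wells of different pools after the pool means were removed, for all 28 pairs of pools. Dots and lines give the median and range of the 8 same-barcode pairs (the room-temperature xylene pair in blue), and crosses the median of pairs with different barcodes. The room-temperature xylene pools have a median of 0.422, against at most 0.181 in every other pair.

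Depth was similar under both methods. Heated wells held 28953, 67426 and 147257 mouse counts (lowest, median and highest of 16), and room-temperature wells held 23015, 64960 and 128394. The difference in means (-2412 counts) had p = 0.812 in a permutation test with labels exchanged within nuclei number, and the wells overlapped over nearly their whole range. Genes detected (at least 1 count) numbered 5261, 7784 and 10557 per heated well, and 4586, 8232 and 11830 per room-temperature well. Frozen wells held medians of 6666 genes at 10 nuclei and 9498 at 100. The share of all counts that had been assigned to human genes was 6.97% to 20.7% in heated wells and 6.17% to 22.6% in room-temperature wells, against 1.61% to 3.70% in frozen wells.

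At equal depth, heated wells of 100 nuclei held fewer genes than room-temperature wells of 100. After every well was thinned to 20000 mouse counts, heated wells of 100 nuclei held 5121, 5332 and 5584 genes (lowest, median and highest of 8), and room-temperature wells held 5558, 6094 and 6646. Only the ends of these ranges overlapped, all 8 heated wells lay below the room-temperature mean, and the difference of -697 genes had p = 0.000622 in an exact 2-sided permutation test (0.00326 after Benjamini-Hochberg adjustment over 21 tests of well summaries). At 10 nuclei the heated wells held 226 genes more in the mean, with p = 0.200 in the same exact test. Whether the difference itself changed with the nuclei number was not tested.

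Malat1, the abundant long noncoding RNA of nuclear speckles (chr19:5795690-5802672, minus strand, GRCm38), took a smaller share of mouse counts after heating. Its share was 0.491%, 0.884% and 0.981% (lowest, median and highest of 8) in heated wells of 10 nuclei, and 0.731%, 1.19% and 1.58% in room-temperature wells of 10. In wells of 100 nuclei it was 1.35%, 1.53% and 1.90% with heat, and 1.82%, 2.33% and 2.81% without. The ranges overlapped narrowly at 100 nuclei and more widely at 10, and at each number 8 of 8 heated wells lay below the room-temperature mean of that number. The mean difference of -0.565 percentage points had p = 1e-05 over the 32 wells, the smallest value that 100000 permutations can give (0.00021 adjusted). Within nuclei numbers the exact permutation p was 0.00963 at 10 and 0.000311 at 100 (0.0405 and 0.00218 adjusted). Frozen wells held far more of it, with medians of 8.58% at 10 nuclei and 10.1% at 100.

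Ribosomal protein genes, which encode the proteins of the cytoplasmic ribosome, made up less of the counts in heated wells of 100 nuclei. Their summed share was 0.492%, 0.577% and 0.692% (lowest, median and highest of 8), against 0.748%, 0.896% and 0.942% at room temperature, and the wells did not overlap. The exact permutation p was 0.000155, the smallest possible with 8 against 8 wells (0.00163 adjusted). At 10 nuclei the heated mean was 0.0732 percentage points higher (exact permutation p = 0.625), with 1 room-temperature well at 1.36%. Frozen wells of 100 nuclei had a median of 0.448%. The 11 mitochondrially encoded transcripts in the table summed to a median of 0.794% in heated and 0.754% in room-temperature wells (permutation p = 0.371), with 0.197% and 0.341% in frozen wells of 10 and 100 nuclei.

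**Figure D2:**
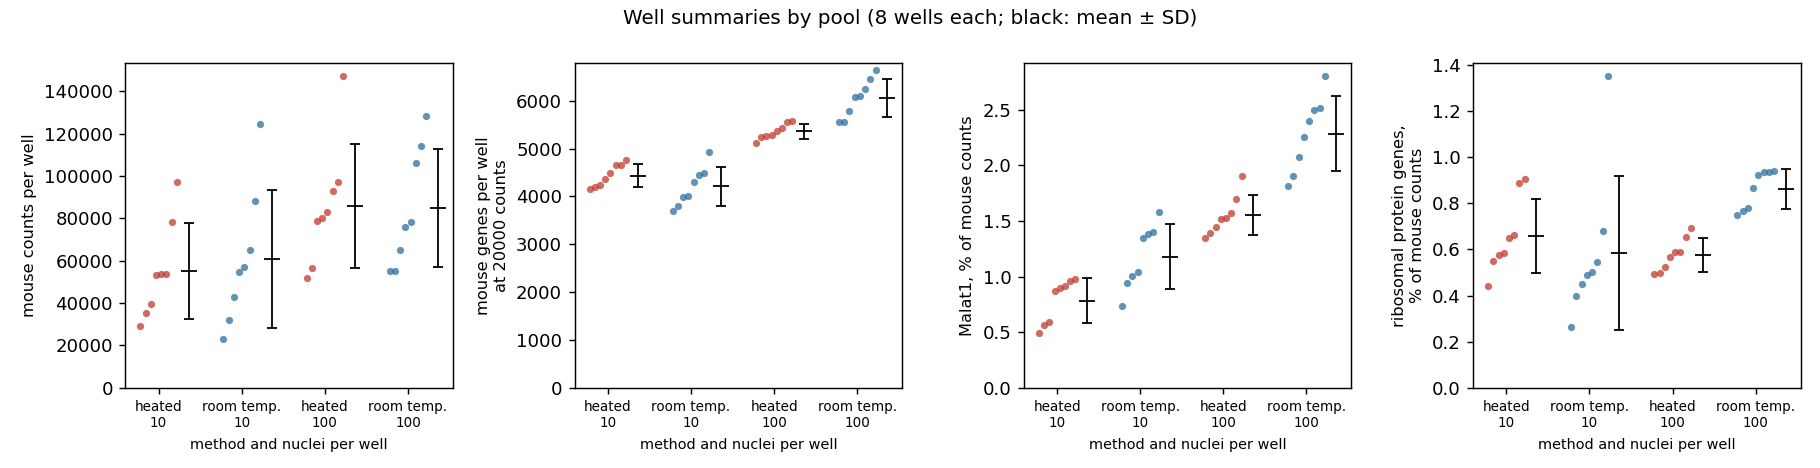
Mouse counts, genes at 20000 counts, and the Malat1 and ribosomal protein shares of mouse counts (all axes linear from 0), for heated (red) and room-temperature xylene wells (blue) at 10 and 100 nuclei. Each point is a well, and black marks give mean ± SD of 8 wells. Genes at equal depth and the ribosomal protein share lie lower with heat at 100 nuclei, where ribosomal shares end at 0.692% with heat and begin at 0.748% without.

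Across genes, 1755 passed the filter on low counts (about 154 CPM, which are counts scaled by library size, in at least 8 wells). Between heated and room-temperature wells, with nuclei number as a covariate, edgeR's quasi-likelihood test called 189 genes at a Benjamini-Hochberg adjusted p under 0.05 (10.8% of those tested): 112 were higher with heat (6.38%) and 77 lower (4.39%). The filter admitted 13 genes through wells of 1 method only, and these had to differ: 12 of them are among the calls, 7 higher and 5 lower. Cyp2d22, Ppp1r12c, Ankrd13a and Tmcc2 came in through heated wells alone, and Pnmal2, Zfyve26, Fam234b and Chrm1 through room-temperature wells alone. Their differences below are descriptions. Of the 672 genes past the filter level in at least 8 wells of each method, 45 were called, 29 higher and 16 lower. The fit treats wells as replicates. When the counts of each pool were summed and the 4 pools compared, with 1 residual degree of freedom, edgeR called 0 genes, with 314 at an unadjusted p under 0.05. Over all 8 pools the call was also 0, with 541 at an unadjusted p under 0.05. DESeq2 called 309 over the 32 wells. At 10 nuclei 388 genes were called (22.1%), 163 higher (9.29%) and 225 lower (12.8%), and at 100 nuclei 40 (2.28%), 19 higher (1.08%) and 21 lower (1.2%). These counts come from 1 model of the 4 pools and depend on it. Fitted alone, with their own spread and filter, wells of 10 nuclei gave 34 calls among 574 genes (5.92%), 24 higher and 10 lower, and wells of 100 gave 72 among 1425 (5.05%), 40 higher and 32 lower. All 34 were among the 388, of which 80 passed the filter in wells of 10 alone. Of the 40 called at 100 nuclei, 28 passed the filter in wells of 100 alone and all 28 were called there. The number of calls was thus higher at 10 nuclei in the 4-pool model and higher at 100 in the fits alone, while the share called was higher at 10 in both. The median log2 difference over all genes was -0.15 at 10 and 0.14 at 100 nuclei, so single genes are to be read against those medians. The common dispersion between wells was 0.567 with heat and 0.670 without at 10 nuclei, against 0.366 and 0.186 at 100. The median correlation between wells of a pool did not follow that order, at 0.579 and 0.546 against 0.528 and 0.574.

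Directions were compared between 10 and 100 nuclei. Of all genes tested, 919 (52.4%) had the same sign at both numbers. Among the 388 genes called at 10 nuclei this was 213 (54.9%), and among the 40 called at 100 it was 28 (70.0%). In the interaction test of the same edgeR model, the method difference itself differed between nuclei numbers for 233 genes (13.3%). Of these, 133 had a more positive difference at 100 nuclei (7.58%) and 100 a more negative one (5.7%). The count fell far with a stricter filter or thinned wells and rose far with no filter, as given in the part on processing. No gene separated all 16 heated from all 16 room-temperature wells. At 10 nuclei the wells of 78 genes did not overlap (4.44%), 53 higher and 25 lower with heat. At 100 nuclei this held for 24 genes (1.37%), 8 higher and 16 lower.

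**Figure D3:**
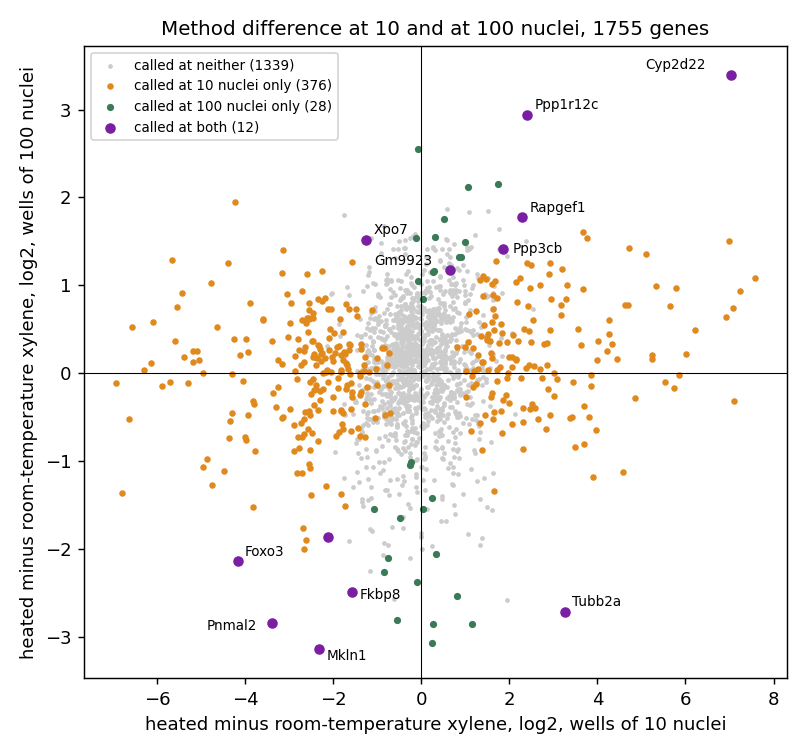
Log2 difference between heated and room-temperature xylene for each of the 1755 genes in wells of 10 (x) and of 100 nuclei (y), coloured by where the gene was called at adjusted p under 0.05. Of the 12 genes called at both numbers, 10 lie in the quadrants of equal sign, and Tubb2a and Xpo7 do not; those described in the text are named.

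Among the 1755 genes tested, 12 were called at both nuclei numbers. They are 12 of the 40 called at 100 nuclei, beside the 22.1% of all genes called at 10. Whether they exceed that share was not tested. Of the 12 genes, 10 moved the same way at both numbers: 5 were higher with heat and 5 lower. Of these 10, 4 had passed the filter through 1 method only. Gm9923, a processed pseudogene (chr10:72309321-72311156, plus strand), did not overlap between methods at either number. Its level was 1389, 1930 and 2115 CPM (lowest, median and highest of 8) in heated wells of 10 nuclei and 829.2, 1084 and 1373 CPM at room temperature. In wells of 100 nuclei it was 911, 999.6 and 1173 CPM with heat and 413, 487 and 539 CPM without. At each number the lowest heated well lay above the highest room-temperature well. The log2 difference was 0.64 ± 0.19 (SE) at 10 nuclei and 1.17 ± 0.19 at 100 (edgeR adjusted p = 0.0107 and 0.000636). In wells of 10 nuclei fitted alone it was not called (adjusted p = 0.0886). Frozen wells had medians of 111 and 173 CPM. Reads of a processed pseudogene can come from the gene it copies, so the transcript behind these counts is uncertain.

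Ppp3cb, which encodes a catalytic subunit of the calcium-activated phosphatase calcineurin (chr14:20499364-20546573, minus strand), was the only other gene whose wells did not overlap at either number in the same direction. It stood at 413, 571 and 952 CPM in heated against 30.8, 112 and 409 CPM in room-temperature wells of 10 nuclei. At 100 nuclei it stood at 290, 440 and 690 against 54.5, 182 and 237 CPM. The rise was 1.86 ± 0.37 and 1.41 ± 0.36 on the log2 scale at 10 and 100 nuclei (edgeR adjusted p = 0.000276 and 0.0285). Over the 32 wells it was 1.63 ± 0.26 (adjusted p = 6.93e-05), with 16 of 16 heated wells above the mean of the 16 room-temperature wells.

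Cyp2d22, a cytochrome P450, passed the filter through 8 heated wells and no room-temperature well, so it had to differ (log2 4.41 ± 0.59 over the 32 wells). It had 93 counts over the 8 heated wells of 10 nuclei, at 102 to 488 CPM, and 0 in all 8 room-temperature wells, which is at least 34.4-fold higher if the pool without counts is set to a floor of 3. At 100 nuclei it ranged from 13.6 to 388 CPM with heat and from 0 to 43.8 CPM without, so the wells overlapped, and the difference was 3.40 ± 0.72. Ppp1r12c, a regulatory subunit of myosin phosphatase, stood at 228, 296 and 577 CPM in heated wells of 100 nuclei against 12.7, 39.2 and 94.2 CPM, with no overlap, a rise of 2.94 ± 0.50. It too passed the filter only through heated wells, all of that pool, so it had to differ. Rapgef1, an exchange factor for the small GTPase Rap1, rose by 2.29 ± 0.59 at 10 nuclei and 1.77 ± 0.48 at 100, where its wells ran from 350 to 749 CPM with heat and from 108 to 280 CPM without.

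Pnmal2, a member of the paraneoplastic Ma antigen family derived from a retrotransposon (chr7:16944682-16948828, plus strand), passed the filter through 11 room-temperature wells and no heated well, so its fall was built into its selection. In wells of 10 nuclei it stood at 0, 22.2 and 82.4 CPM with heat and 93.5, 245 and 642 CPM without, and the wells did not overlap. In wells of 100 nuclei the values were 0, 12.6 and 141 CPM against 132, 230 and 443 CPM, where 1 heated well reached into the room-temperature range. The fall was -3.39 ± 0.64 and -2.84 ± 0.60 on the log2 scale, and all 16 heated wells lay below the mean of the 16 room-temperature wells. Wells of heated mineral oil had 0 counts of it at 10 nuclei and a median of 221 CPM at 100, and frozen wells had medians of 41.4 and 101 CPM.

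Foxo3, a transcription factor held back by insulin signalling, fell by 4.16 and by 2.14 on the log2 scale at 10 and 100 nuclei (SE 0.68 and 0.58). Its heated wells lay at 0 to 38.4 CPM and 0 to 154 CPM, and its room-temperature wells at 77.0 to 717 CPM and 54.5 to 263 CPM, so it separated the methods only at 10 nuclei. Mkln1, which encodes the ubiquitin ligase subunit muskelin, differed by -2.32 ± 0.68 and -3.14 ± 0.70, and separated them only at 100 nuclei (0 to 61.1 against 78.9 to 405 CPM). Fkbp8, an immunophilin of the mitochondrial outer membrane, differed by -1.56 ± 0.57 and -2.49 ± 0.59. It also separated the methods at 100 nuclei and overlapped at 10.

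Tubb2a and Xpo7 turned around between nuclei numbers. Tubb2a, a beta-tubulin, stood at 69.1, 301 and 453 CPM in heated and 0, 15.6 and 88.0 CPM in room-temperature wells of 10 nuclei, but at 0, 5.14 and 67.9 against 70.1, 116 and 254 CPM in wells of 100. Its differences of 3.26 ± 0.67 and -2.71 ± 0.66 differed by -5.97 ± 0.94 (edgeR interaction, adjusted p = 2.85e-05). Its closest relative Tubb2b has a near-identical sequence, so reads can be split between them. Xpo7, a nuclear export receptor, differed by -1.25 ± 0.45 at 10 and 1.52 ± 0.42 at 100 nuclei (interaction 2.77 ± 0.62, adjusted p = 0.00200).

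**Figure D4:**
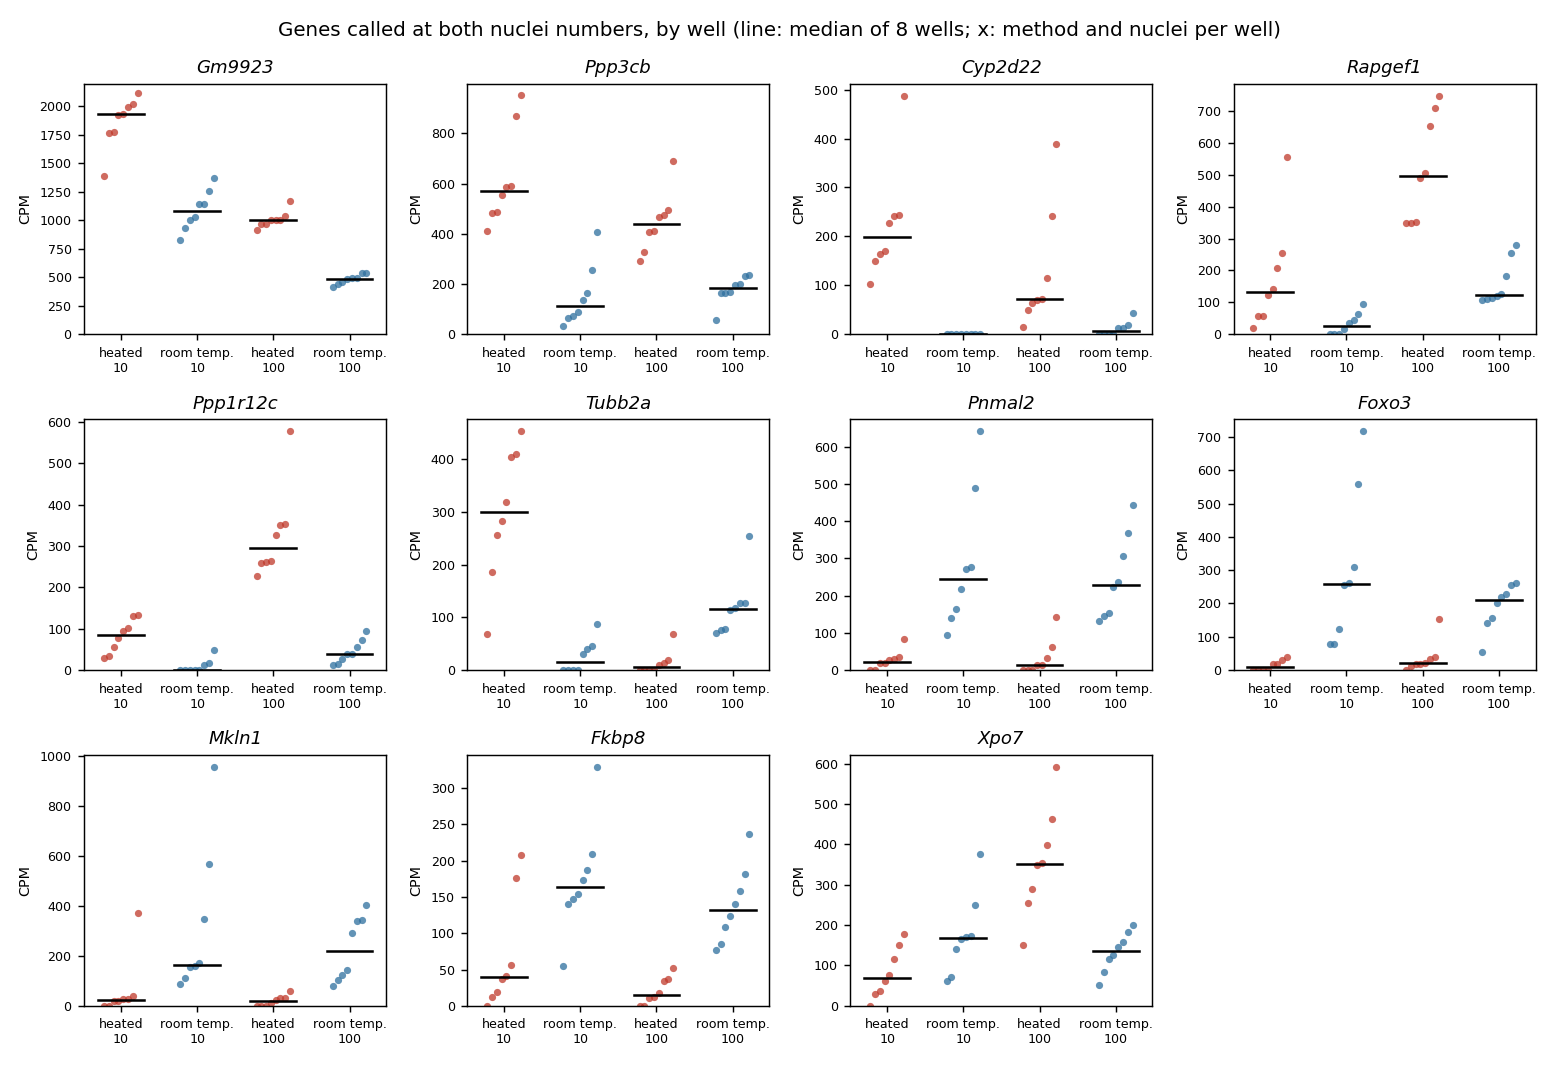
CPM per well (linear axes from 0) of genes called at both nuclei numbers, in heated (red) and room-temperature xylene wells (blue) of 10 and 100 nuclei; black lines are medians of 8 wells. Gm9923 and Ppp3cb do not overlap between methods at either number, and Tubb2a falls from 301 to 5.14 CPM in the heated medians while the room-temperature medians go from 15.6 to 116 CPM.

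Many of the largest differences were present in every well of one pool of 10 nuclei and missing from the other. Of the tested genes, 6 had counts in all 8 heated and in none of the 8 room-temperature wells of 10 nuclei, and 5 had the reverse. At 100 nuclei no gene did, and all 11 of these had counts in wells of both methods there. Neat1, the RNA scaffold of paraspeckles, was at 138, 264 and 598 CPM in heated wells of 10 nuclei with 154 counts in all and had 0 counts at room temperature, at least 56.9-fold higher. At 100 nuclei it was at 64.7, 155 and 549 against 46.2, 90.8 and 298 CPM, a difference of 1.09 ± 0.47 that was not called (edgeR adjusted p = 0.264). The interaction for Neat1 was -6.48 ± 1.02 (adjusted p = 5.40e-05).

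Gabarapl1, an autophagy protein of the ATG8 family, Tmem258, a subunit of the oligosaccharyltransferase, Igfbp5, which binds insulin-like growth factors, and Ndufv3, a subunit of respiratory complex I, shared that pattern, and Cyp2d22 was the sixth. Their heated pools of 10 nuclei held 110, 100, 100 and 100 counts against 0, and they were at least 40.6-fold, 36.9-fold, 36.9-fold and 36.9-fold higher in that order. At 100 nuclei their differences were 0.94, 1.51, 0.64 and -0.31, none of them called. The 5 with the reverse pattern were Clcn4, Bace1, Ngfrap1, Sez6l2 and Ghitm, the last 2 named after their values were seen. Clcn4, an endosomal chloride-proton exchanger, was at least 29.5-fold lower with heat and Bace1, the beta-secretase, at least 18.3-fold lower. Grin2c, an NMDA receptor subunit of cerebellar granule neurons, also had 0 counts with heat at 10 nuclei, against 0, 70.2 and 402 CPM at room temperature, at least 21.1-fold lower. At 100 nuclei Clcn4, Bace1 and Grin2c differed by -0.11, -0.52 and -1.36, and none was called.

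Ankrd13a, a ubiquitin-binding protein that passed the filter through heated wells alone, had 212 counts over the heated and 1 over the room-temperature wells of 10 nuclei, a ratio of 235 with a 95% counting interval of 41.7 to 9323. At 100 nuclei its wells overlapped, at 0 to 279 and 0 to 90.8 CPM. Tmcc2, a transmembrane protein of the endoplasmic reticulum that also passed only through heated wells, was at 226 to 656 CPM against 0 to 56.1 CPM at 10 nuclei, and at 50.7 to 250 against 13.1 to 127 CPM at 100. Zfyve26, known as spastizin, passed only through room-temperature wells. It stood at 0 to 75.7 against 123 to 709 CPM at 10 nuclei and differed by -1.52 ± 0.59 at 100 nuclei, which was not called. Slc25a4, the ADP/ATP carrier of mitochondria, and Bex1, a small neuronal adaptor protein, fell in the 32 wells by 2.23 each on the log2 scale, with 16 of 16 heated wells below the mean of the 16 room-temperature wells.

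Among genes called at 100 nuclei, the largest rises were those of Cyp2d22, Ppp1r12c and Wscd1, and the largest falls those of Mkln1, 2010107E04Rik and Fau. Wscd1, a Golgi protein, stood at 323, 498 and 660 CPM with heat against 17.5, 54.9 and 197 CPM without, and the wells did not overlap. Its difference was 2.55 ± 0.62 at 100 nuclei and -0.08 ± 0.68 at 10. At 10 nuclei the shallowest room-temperature well held 912 CPM of Wscd1 and the others 24.1 to 88.0 CPM. Heated wells there held 12.8 to 508 CPM, so its value at 10 nuclei and its interaction depend on single wells. Fau, which encodes a ribosomal protein fused to a ubiquitin-like protein, stood at 0, 21.7 and 41.2 against 36.3, 166 and 381 CPM, a difference of -2.85 ± 0.64, with 0.27 ± 0.58 at 10 nuclei. The gene 2010107E04Rik differed by -3.06 ± 0.68 and by 0.24 ± 0.62 in the same order. For all 3 the interaction was called (edgeR adjusted p of 0.0462, 0.0127 and 0.0128).

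Astrocyte genes were the cell type list with the most calls. Of 22 genes fixed as astrocyte markers, 20 were in the table and 15 were tested. Over the 32 wells 5 were called higher with heat and 0 lower, beside 6.38% higher and 4.39% lower of all genes, with a median log2 difference of 0.72 over the tested members beside 0.01 over all genes. At 100 nuclei all 15 had a positive sign, as did 1041 of all 1755 genes, with a median of 0.90 beside 0.14 over all genes, and 3 were called beside 2.28% of all genes. At 10 nuclei 8 of 15 were positive, beside 779 of 1755, with a median of 0.57 beside -0.15. There 3 were called, a share near the 22.1% of all genes. The list was summed over all 20 members, tested or not. It took 0.514%, 0.679% and 0.931% of mouse counts in heated wells of 100 nuclei and 0.356%, 0.454% and 0.520% in room-temperature wells, which met only at their ends. At 10 nuclei the shares were 0.614%, 0.731% and 1.12% against 0.352%, 0.584% and 0.915%, and they overlapped. In bulk wells, more nuclei of a type and more RNA per nucleus cannot be told apart.

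The called astrocyte genes behaved differently from each other. Clu, which encodes the secreted chaperone clusterin, was at 113, 300 and 447 CPM with heat and 70.4, 129 and 239 CPM without at 10 nuclei, and at 269, 433 and 597 against 72.7, 200 and 280 CPM at 100. The wells overlapped at both, and the rise over 32 wells was 1.13 ± 0.24 (edgeR adjusted p = 0.00188). Gpc5, a glypican, rose by 0.64 ± 0.17, with near-equal differences of 0.62 ± 0.24 and 0.66 ± 0.24 at 10 and 100 nuclei that were not called on their own. The Gpc5 call was lost under 8 of 18 alternative settings. Ndrg2, a protein of astrocyte processes, rose by 1.35 ± 0.38.

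Apoe, the lipid carrier of astrocytes, was at 770, 1317 and 2030 CPM with heat and at 69.8, 133 and 369 CPM without at 10 nuclei, with no overlap. At 100 nuclei it was at 152, 307 and 711 against 127, 344 and 490 CPM. Its difference of 2.86 ± 0.37 at 10 nuclei and 0.10 ± 0.34 at 100 changed by -2.76 ± 0.49 (edgeR interaction, adjusted p = 0.000158). Sparcl1, a secreted synapse-organising protein, differed by 5.10 ± 0.70 and 1.36 ± 0.51 (interaction -3.74 ± 0.87, adjusted p = 0.00305). Aldoc and Cst3 were called at 100 nuclei, at 1.54 ± 0.42 and 1.04 ± 0.26, and had differences of -0.12 ± 0.42 and -0.06 ± 0.26 at 10. The transporters Slc1a2 and Slc1a3, which take up glutamate, were not called, at 0.11 ± 0.43 and 0.04 ± 0.51 over the 32 wells. Of the 5 astrocyte genes below the filter, Gja1 had 120 counts with heat and 19 without, Gjb6 had 0 and 108, Nwd1 29 and 112, Aqp4 35 and 56, and Prex2 77 and 54. These sparse members did not share 1 direction.

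**Figure D5:**
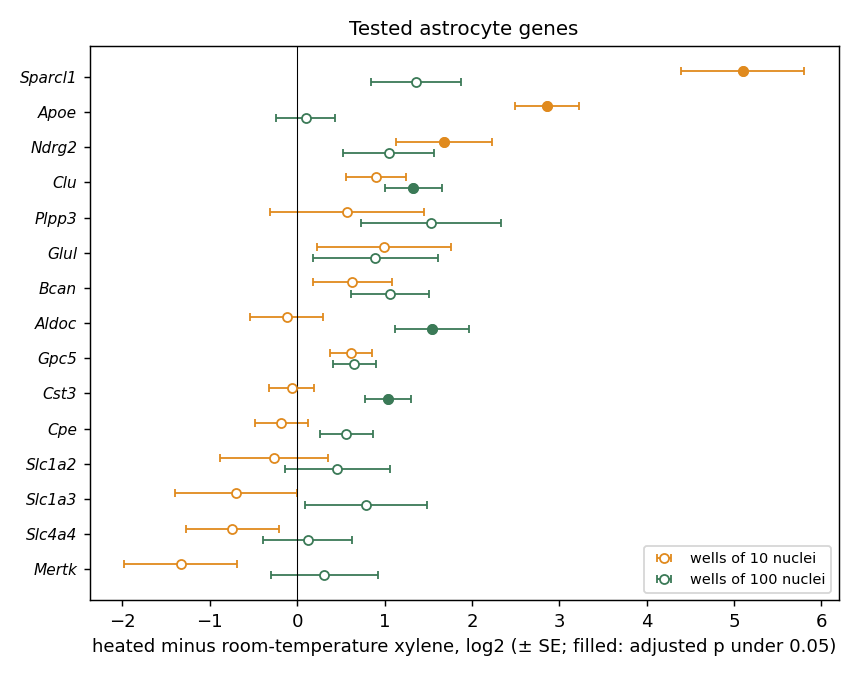
Log2 difference between heated and room-temperature xylene (± SE) of the 15 tested astrocyte genes in wells of 10 (orange) and 100 nuclei (green); filled points had adjusted p under 0.05. All 15 lie above 0 at 100 nuclei and 8 of 15 at 10.

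Over the other cell type lists 6 of 50 tested genes were called in the 32 wells, a share near the 10.8% of all genes. The labels name cortex, and both cortical and cerebellar transcripts were present: the 20 cerebellar granule neuron genes in the table took 0.212% to 0.760% of mouse counts in xylene wells of 10 nuclei and 0.678% to 0.991% in wells of 100, and the 17 cortical excitatory neuron genes 0.441% to 1.09% and 0.265% to 0.525%. Of 15 tested granule neuron genes, Grin2c and Tmem266 were called lower with heat and Zic1 higher over the 32 wells. At 10 nuclei 3 were called higher (Zic1, Cbln3 and Fat2) and 3 lower (Grin2c, Tmem266 and Kcnd2). There 9.29% of all genes were called higher and 12.8% lower. At 100 nuclei 0 of the 15 were called. Tmem266, a voltage-sensing membrane protein of granule neurons, differed by -2.46 ± 0.60 over the 32 wells and Zic1, a transcription factor of the lineage, by 0.98 ± 0.32, a call that was lost under 11 of 17 alternative settings. Gabra6, the receptor subunit that marks granule neurons, was not called at 0.32 ± 0.31. Of 11 oligodendrocyte genes only Cnp was called (-1.71 ± 0.52), and the median over the 11 was -0.17. The oligodendrocyte genes together took 2.69% of counts in 1 room-temperature well of 10 nuclei, where the median of the 8 wells was 0.252%. Syt2 was the 1 of 5 tested Purkinje and other cerebellar neuron genes called (1.93 ± 0.49), and Erbb4 the 1 of 4 inhibitory neuron genes (1.45 ± 0.34). Of the 5 cortical, 3 striatal, 4 oligodendrocyte precursor, 2 microglial and 2 endothelial genes tested, edgeR called 0 over the 32 wells. An unadjusted p under 0.05 was reached by 1 of these, a cortical gene, and DESeq2 called 1, also cortical. At 10 nuclei edgeR called 1 of these genes, the microglial Ctss, lower with heat (-3.16 ± 0.79), beside 12.8% of all genes. No gene of the mural, leptomeningeal, ependymal and choroid list passed the filter.

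Among nuclear long noncoding RNAs 6 were tested, of which 3 were called lower and 2 higher, beside 4.39% and 6.38% of all genes. Malat1 differed by -0.58 ± 0.12 over the 32 wells (edgeR adjusted p = 0.00149), with -0.71 ± 0.17 at 10 and -0.45 ± 0.17 at 100 nuclei, the second not called (adjusted p = 0.161). Gm42418 and Gm26917, neighbours on chromosome 17 known for sequence shared with ribosomal RNA, differed by -0.66 ± 0.21 and -1.23 ± 0.36, calls that were lost under 9 and 7 of 18 alternative settings. Snhg11, a neuronal small nucleolar RNA host gene, rose by 0.88 ± 0.16, with 16 of 16 heated wells above the mean of the 16 room-temperature wells, and did not overlap at 10 nuclei (1472 to 2979 against 499 to 1227 CPM). Meg3, an abundant imprinted RNA of neurons, stood at 0.19 ± 0.17 and was not called.

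Of 33 heat shock and chaperone genes measured, 7 were tested and only Hsp90aa1, which encodes the inducible cytosolic form of HSP90, was called (1.497 ± 0.50, edgeR adjusted p = 0.0485), 1 of 7 beside 10.8% of all genes. That call was lost under 13 of 17 alternative settings and its direction turned in 1 more. At 10 nuclei it ranged from 34.5 to 984 CPM with heat and from 0 to 61.6 CPM without (3.85 ± 0.62), and at 100 nuclei from 115 to 724 against 323 to 599 CPM (-0.02 ± 0.48). The median over the 7 was -0.12. The constitutive members Hspa8 and Hsp90ab1 stood at 0.02 ± 0.33 and -0.71 ± 0.29. Of the 22 ribosomal protein genes tested edgeR called 0 over the 32 wells, with a median of -0.29. Of these 22, 6 had an unadjusted p under 0.05 and DESeq2 called 4. Of 8 mitochondrial transcripts edgeR and DESeq2 called 0 over the 32 wells. The median was 0.13, and 0 had an unadjusted p under 0.05. At 10 nuclei edgeR called 1 of the 8, mt-Nd4l, higher (1.01 ± 0.31), beside 9.29% of all genes. Of 11 nuclear-encoded respiratory chain genes edgeR called 0 over the 32 wells and DESeq2 1, with 3 at an unadjusted p under 0.05. Their median was 0.31, and at 10 nuclei edgeR called 1 of the 11, Atp5c1, higher (1.66 ± 0.60). Of 22 abundant neuronal cytoplasmic mRNAs, 2 were called over the 32 wells. Actb, the cytoskeletal beta-actin, was higher (1.16 ± 0.30) and Ckb, the brain creatine kinase, lower (-0.57 ± 0.19). At 10 nuclei 4 of the 22 were called higher and 1 lower, beside 9.29% and 12.8% of all genes. At 100 nuclei 1 was called lower, Tubb2a, beside 1.2% of all genes. The Ckb call was lost under 11 of 18 alternative settings. Actb differed by 2.38 ± 0.33 at 10 nuclei and 0.06 ± 0.30 at 100. Of 19 presynaptic release genes only Syt2 was called, and of 13 ionotropic glutamate receptor subunits only Grin2c. Pnmal2 was the 1 tested member of its family. Homer1 was the only immediate early gene tested and stood at -0.24 ± 0.50.

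Short genes were called more often than long ones, in both directions. In the 348 genes with the shortest gene bodies (0.204 to 24.5 kb in GENCODE M21, which held 1740 of the 1755 genes), 42 were called higher and 22 lower, or 18.4%. In the 348 with the longest (324 to 2961 kb), 11 were called higher and 10 lower, 6.03%. The median log2 difference was 0.10 in the shortest and -0.03 in the longest. For transcript GC content, 15.2% were called in the 348 highest and 7.76% in the 348 lowest. These are descriptions across genes, which are not replicates.

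A second chemistry, SMART-Seq2, which reads whole transcripts, had been run on 1 well of 100, 50 and 10 nuclei per method. Of the 189 genes called in SCRB-seq, 179 had at least 5 CPM on average in these 6 wells, and 85 of them (47.5%) had the same direction in the mean of the 3 differences of log2(CPM + 1), against 844 of 1682 (50.2%) for all genes tested. The same direction in all 3 was seen for 21 (11.7%), against 13.8% for all genes. Of the 10 genes that moved the same way at both nuclei numbers, 9 could be set beside SMART-Seq2 and 3 had the same mean direction. Pnmal2 was lower with heat in all 3 pairs: 74.9 against 179 CPM at 100 nuclei, 95.7 against 210 at 50 and 104 against 355 at 10. Ppp3cb was lower in all 3, at 95.1 against 153, 168 against 171 and 42.4 against 162 CPM. Malat1 differed by 0.04, -0.01 and 0.14. With 1 well per method and nuclei number there is no test of these differences.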

How the data were processed

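The authors deposited SCRB-seq as raw counts per gene and well, with an annotation of treatment, nuclei number, well barcode and library index. Per the file headers, genes carry a human or mouse prefix, and the submitters' processing notes name the builds hg19 and mm10. The aligner, the counter, strand use and whether counts were collapsed by molecular identifier were not given in the sources used here. SMART-Seq2 wells were also deposited as counts. CPM and all statistics were computed here from mouse genes (19006). The 10653 human genes were left out of the fits.

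Counts were fitted with edgeR 4.0.16 in R 4.3.3 (TMM, filterByExpr by pool, quasi-likelihood test, Benjamini-Hochberg adjusted p under 0.05): nuclei number plus method, and a model of the 4 pools for each nuclei number and the interaction. DESeq2 1.42.0 was an alternative. Well summaries used 2-sided permutation tests (100000 resamples within nuclei number, or exact with 12870 splits), in Python 3.11.15 with scipy 1.17.1. Differences are heated minus room temperature. Each edgeR SE is the size of the log2 difference divided by the square root of its F statistic. It is thus no separate estimate of precision, above all where a pool had 0 counts. Counting intervals and floors cover counting error only. In simulated data with this spread between wells, edgeR recovered 48.4% of 2-fold, 95.3% of 4-fold and 100% of 16-fold changes over 32 wells. It made 9 false calls among 1405 unchanged genes. The simulated wells were drawn independently, with no added difference between pools or nuclei numbers and no link between same-barcode wells. These rates therefore do not cover differences between libraries, which the wells of 1 pool share.

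Genes were named by rule: the 15 largest rises and falls with equal sign at both nuclei numbers, the 3 largest rises and falls at each number and in the interaction, Malat1, Neat1 and Meg3, and called members of fixed lists. Genes called at both numbers, and the members of lists that were not called, were added after their values were seen. The wells, lists and tests were chosen with earlier results of these data known. Alternatives covered scaling, low-count filters, the tool, covariates, the wells fitted, summed pools and depth. Gene positions are those of GENCODE M21 on GRCm38. Some results are not reported here.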

Additional observations from a re-analysis of the deposited data

Results flagged for a closer look

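Among 128 groups of 8 wells checked, 23 had 1 well standing apart by Dixon's test. Chance alone gives this in about 1 group in 20 for normally distributed values, which CPM of sparse genes are not. The 23 can therefore not be read as more than chance gives. For Ankrd13a, Tmcc2 and Sparcl1 in room-temperature wells of 10 nuclei, the next highest well was at 0. In wells of 10 nuclei with heat, the highest well stood apart for Pnmal2 (82.4 CPM), Mkln1 (374 CPM), Cyp2d22 (488 CPM), Ankrd13a (1174 CPM) and Rapgef1 (555 CPM). In wells of 100 nuclei with heat this was so for Pnmal2 (141 CPM), Foxo3 (154 CPM), Ankrd13a (279 CPM), Ppp1r12c (577 CPM) and Tubb2a (67.9 CPM). In room-temperature wells of 10 nuclei it was so for Ankrd13a (11.4 CPM), Tmcc2 (56.1 CPM), Ppp1r12c (48.1 CPM), Sparcl1 (68.2 CPM), Apoe (369 CPM) and the ribosomal protein share (1.36%), and the lowest well stood apart for Gpc5 (592 CPM). In room-temperature wells of 100 nuclei the highest well stood apart for Grin2c (460.0 CPM), Zfyve26 (329 CPM), Cyp2d22 (43.8 CPM), Neat1 (298 CPM) and Tubb2a (254 CPM), and the lowest for Ppp3cb (54.5 CPM).

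For 32 of the 61 named genes the method difference itself differed between 100 and 10 nuclei (edgeR interaction, adjusted p under 0.05). Over all genes tested this share was 13.3%. Many genes were named for large differences at either nuclei number or in the interaction. The count of 32 therefore follows in part from how the genes were chosen, and it cannot be set against that share. The values here are log2 differences at 100 minus those at 10 nuclei. They were positive for Ngfrap1 (7.09), Rab14 (6.95), Clcn4 (6.82), Bace1 (6.12), Grin2c (5.43), Slc8a3 (3.89), Tmem266 (3.89), Ramp1 (3.85), Zswim6 (3.48), Rapgef2 (3.37), Chrm1 (3.28), Frrs1l (2.89), Xpo7 (2.77) and Wscd1 (2.64). They were negative for Ndufv3 (-7.41), Neat1 (-6.48), Ankrd13a (-6.33), Gabarapl1 (-6.30), Igfbp5 (-6.28), Tubb2a (-5.97), Acap3 (-5.80), Akap8 (-5.73), Tmem258 (-5.47), Hepacam (-4.89), Map2k4 (-4.35), Hsp90aa1 (-3.88), Sparcl1 (-3.74), 2010107E04Rik (-3.30), Tmcc2 (-3.28), Fau (-3.12), Apoe (-2.76) and Actb (-2.32). Nuclei number and pool cannot be told apart in these differences.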

How the results depend on the processing

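The count of 189 called genes was 178 with DESeq2 size factors, 181 with TMMwsp, 161 with library sizes alone and 168 with the mineral oil wells added. It was 3075 with no filter on low counts, 1201 with at least 64 counts in all and 79 with at least 10 counts in 16 wells. DESeq2 called 309, the fit of all 64 wells 300, the fit without the nuclei number 42, and that of 48 wells without it 21. Thinned wells gave 21, among 371 genes that still passed the filter. Wells of 10 and of 100 nuclei alone, which also stand beside the 388 and 40 calls of the 4-pool model, gave 34 and 72, with fewer genes past the filter (574 and 1425), and summed pools gave 0 over 4 pools and 0 over 8. The cause of the other shifts was not tested. The 388 calls at 10 nuclei became 3318 with no filter, 139 with the stricter filter and 33 after thinning. The 40 at 100 nuclei became 1919, 21 and 2, and 76 with DESeq2. The 233 interactions became 1921, 47 and 6. With the well barcode as a replicate block the counts were 202 overall (163 shared with the 189), 416 at 10 nuclei, 83 at 100 and 270 for the interaction. Same-barcode wells of the 4 xylene pools had median correlations of 0.0557 to 0.422 over the 6 pairs of pools, all above those of different barcodes, and a barcode term was called for 106 genes (6.04%). Between the room-temperature pools 8 of 8 wells correlated best with their own barcode, against 4 to 7 of 8 in the other 5 pairs. As 4 of the 6 medians were under 0.1 and no label ties a barcode to an animal, the barcode was not taken to pair wells. Without the shallowest well, a room-temperature well of 10 nuclei with 23015 counts, 200 genes were called, 163 of them shared, and 457 at 10 nuclei.

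Single genes turned around in wells of 100 nuclei alone for Ngfrap1 (0.46), Actb (-0.011) and Hsp90aa1 (-0.10), and for Rab14 with 48 wells (0.11) and 64 wells (0.22). Mouse counts differed by 2466 in the other direction with medians over wells. The ribosomal protein share passed p under 0.05 with medians (-0.169 percentage points, permutation p = 0.0228) and with summed counts (-0.136, permutation p = 0.0437), against -0.107 for means. Each pool is 1 library, so the spread between libraries of 1 condition was not measured.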
